A study of Mus musculus with 12 samples.

Results

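The 38 genes described here encode the enzymes and cofactors that copy chromosomal DNA, and the nucleotide, histone and chromatin factors used during that copying. They were taken by gene symbol from a fixed list and make up 38 of the 24432 genes in the expression table. All 38 symbols were found, and all 38 passed the low-level filter of at least 1 FPKM (fragments counted on a gene, divided by its transcript length and by the library's depth) in at least 3 libraries, which left 16313 genes to test. The series profiled RNA from 4 groups of 3 mouse libraries each, in a study of kidney epithelium that lacks the kinases Lats1 and Lats2, which restrain the growth coactivators YAP and TAZ in the Hippo pathway. Primary tumors and lung metastases were taken from Slc34a1CreERT2;Lats1/2flox/flox mice, in which tamoxifen, given in 3 injections at 1 month of age, activates Cre in cells that use the Slc34a1 promoter, that is, proximal tubule cells. Both tissues were dissected 4 months after tamoxifen. Allograft tumors grew for 6 weeks from Lats1-/-;Lats2-/- cells placed under the kidney capsule of NOD/scid hosts aged 6 to 8 weeks, a strain without mature T and B cells. Proximal tubule cells were sorted by a red reporter from adult Slc34a1CreERT2;Lats1c/c;Lats2c/+;RosaTomato mice, which the labels describe as wild type. These controls thus also carry Cre and conditional Lats alleles, and the sources used here do not say whether those alleles were recombined. The tumors were dissected pieces of tissue with host cells in them, whereas the controls were a sorted cell type. In such bulk RNA, a difference in the share of dividing cells and a difference in RNA per dividing cell cannot be told apart. The labels do not state that replicates are separate animals, and a p-value here speaks only of the spread between these libraries, which may be technical.

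DNA is copied once per cell cycle. In G1 phase the origin recognition complex, Cdc6 and Cdt1 load pairs of the ring-shaped MCM2-7 helicase onto origins, and in S phase Cdc45 and the GINS complex turn the rings into active helicases. Polymerase alpha-primase lays down primers, polymerases epsilon and delta extend them on the sliding clamp PCNA, and Fen1 and DNA ligase 1 join the lagging strand. Many of these genes are transcribed at the G1/S transition under E2F factors, and most cells of the healthy adult proximal tubule are out of the cycle.

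Promoter sequences of 5 MCM2-7 genes (all but Mcm4) are shown because all subunits of this complex were called higher together against proximal tubule cells, as described further on, and because the E2F and CCAAT sequence forms recur in them. They come from RefSeq on the GRCm38.p6 assembly, run 5′ to 3′ on the strand of the gene, and cover 250 bases before the annotated start and the first 30 bases from it. Capitals mark the E2F forms TTTCCCGC, TTTGGCGC, TTTCGCGC and TTTGCCGC and the letters CCAAT, on either strand (ATTGG is CCAAT on the other strand).
Mcm2, chr6:88898751-88899030, minus strand: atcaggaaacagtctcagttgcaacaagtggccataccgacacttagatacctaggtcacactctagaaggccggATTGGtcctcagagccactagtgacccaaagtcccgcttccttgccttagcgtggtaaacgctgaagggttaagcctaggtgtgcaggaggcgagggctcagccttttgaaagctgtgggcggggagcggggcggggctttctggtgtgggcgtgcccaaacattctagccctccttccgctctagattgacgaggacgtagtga
Mcm3, chr1:20820283-20820562, minus strand: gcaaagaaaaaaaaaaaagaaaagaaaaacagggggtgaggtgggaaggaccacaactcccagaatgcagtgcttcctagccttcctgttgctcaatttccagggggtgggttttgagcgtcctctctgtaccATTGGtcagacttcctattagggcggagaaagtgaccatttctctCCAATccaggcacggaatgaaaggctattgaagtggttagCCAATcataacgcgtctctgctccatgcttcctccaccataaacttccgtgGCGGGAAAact
Mcm5, chr8:75109259-75109538, plus strand: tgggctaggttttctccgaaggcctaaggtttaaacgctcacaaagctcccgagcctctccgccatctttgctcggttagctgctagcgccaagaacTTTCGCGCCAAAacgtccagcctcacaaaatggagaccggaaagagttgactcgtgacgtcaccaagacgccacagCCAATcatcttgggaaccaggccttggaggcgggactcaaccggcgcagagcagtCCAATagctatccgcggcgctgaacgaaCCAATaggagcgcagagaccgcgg
Mcm6, chr1:128359676-128359955, minus strand: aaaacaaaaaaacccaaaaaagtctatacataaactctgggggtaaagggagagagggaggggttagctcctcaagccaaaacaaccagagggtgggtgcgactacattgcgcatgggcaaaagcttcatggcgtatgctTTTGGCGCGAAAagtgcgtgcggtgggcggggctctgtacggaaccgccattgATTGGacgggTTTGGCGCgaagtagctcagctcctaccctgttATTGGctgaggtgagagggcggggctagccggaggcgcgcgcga
Mcm7, chr5:138171854-138172133, minus strand: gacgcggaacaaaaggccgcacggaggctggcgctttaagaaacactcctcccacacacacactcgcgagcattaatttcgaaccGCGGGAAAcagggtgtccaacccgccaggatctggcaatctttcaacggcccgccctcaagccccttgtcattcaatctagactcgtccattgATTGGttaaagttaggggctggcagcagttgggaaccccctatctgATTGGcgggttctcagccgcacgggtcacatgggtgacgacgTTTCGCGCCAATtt

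The Mcm3, Mcm5, Mcm6 and Mcm7 stretches hold both an E2F form and CCAAT, and the Mcm2 stretch holds CCAAT alone. In Mcm5 and Mcm6 an E2F form on one strand overlaps another on the opposite strand, and in Mcm7 the E2F form nearest the start overlaps CCAAT. Mcm7 has a second start in the table, whose window (chr5:138171217-138171516, not shown) holds CCAAT but no E2F form. Over windows of 300 bases (250 before the start and 50 after it), the table had entries for 31 of the 38 genes, in 36 windows. An E2F form was found in 13 of these 36 windows (36.1%), against 744 of all 32851 windows (2.26%). CCAAT was found in 21 of the 36 (58.3%), against 37.4% of all windows. The letters TTTGAA, a form found in promoters of mitosis genes, were in 4 of the 36 (11.1%), against 17.9% of all windows, while 9 of 13 windows of mitosis genes (69.2%) held them. A match is only a run of letters and was not tested as a binding site. In allograft tumors against proximal tubule cells, the median log2 change of FPKM + 1 was 3.50 over the 13 genes with an E2F form and 3.06 over the 18 without one, and in metastases against proximal tubule cells the medians were 1.86 and 1.81.

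Column sums and estimated depths differed between the controls and the tumors. FPKM summed to between 706093 and 738052 in the 3 proximal tubule libraries and to between 1352265 and 2527747 in the 9 tumor libraries. The smallest steps in the values correspond to rough depths of 5050000 to 6510000 fragments in the proximal tubule libraries and 12040000 to 19560000 in the tumor libraries. The sums move the baseline of every comparison with proximal tubule cells: the median log2 change over all tested genes was 0.59, 0.68 and 0.66 for primary tumors, metastases and allograft tumors, and -0.29, -0.18 and -0.37 after each library was rescaled to TPM, which gives all libraries the same sum. Since a value per gene cannot show which exons were deleted, Lats1 (5.60 to 14.7 FPKM in tumors, 11.9 to 12.8 in proximal tubule cells) and Lats2 (12.2 to 22.5 and 10.5 to 10.96) do not check the genotype. The proximal tubule markers summed to 6280 to 6537 FPKM in the sorted cells, as their label says, but also to 13909 in primary tumor 3 and 57311 in primary tumor 2, against 274 in primary tumor 1, 178 to 222 in metastases and 47.9 to 138 in allograft tumors. Kap, an androgen-regulated tubule gene, alone reached 53370 FPKM among the primary tumors. Of the 10 markers, 5 were called lower in primary tumors than in the sorted cells and 0 higher, with a median change of -2.53. Called lower in metastases were 9 and in allograft tumors 10. Of all tested genes 4.90%, 14.4% and 16.9% were called lower in these 3 comparisons. The sodium-phosphate transporter Slc34a1 was at most 0.0951 FPKM in metastases and 1.37 in allograft tumors against 866 to 1040 in the sorted cells. Aqp1 lay closer, at 141 to 180 FPKM in metastases against 186 to 258 in the sorted cells. Primary tumors 2 and 3 also carried markers of other nephron segments (2128 and 4546 FPKM, against 326 in primary tumor 1). The sorted cells were not free of these markers, which summed to 312 to 548 FPKM there. Changes of the 38 genes in primary tumors are therefore also given without primary tumors 2 and 3.

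On the deposited FPKM scale, replication transcripts were highest in allograft tumors, intermediate in metastases, lower and uneven in primary tumors and lowest in proximal tubule cells. All 3 allograft libraries lay above all 9 other libraries for 38 of 38 genes, where 15.0% of all tested genes did so. The group means followed the order allograft tumor, metastasis, primary tumor and proximal tubule for 36 of 38 genes, where 23.8% of all tested genes did. The exceptions were Cdt1 and Tyms, whose proximal tubule mean lay above the primary tumor mean. The 38 FPKM values summed to 172 to 188 in proximal tubule cells, 254 to 600.5 in primary tumors, 696 to 743 in metastases and 1382 to 2262 in allograft tumors. The median ratio of group means to proximal tubule cells was 2.90 for primary tumors, 5.20 for metastases and 15.2 for allograft tumors. After TPM rescaling, 24 of the 38 changes of primary tumors against proximal tubule cells were positive, against 36 on the deposited scale. In metastases 34 of 38 were positive after TPM rescaling and in allograft tumors 37. Ratios within groups are not rescaled either, and all FPKM summed to 2527747 in allograft tumor 1 and 1352265 in allograft tumor 2. Metastases were the most even group, with a median ratio of the highest to the lowest library of 1.11, against 1.32 in proximal tubule cells, 1.72 in allograft tumors and 2.90 in primary tumors.

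**Figure D1:**
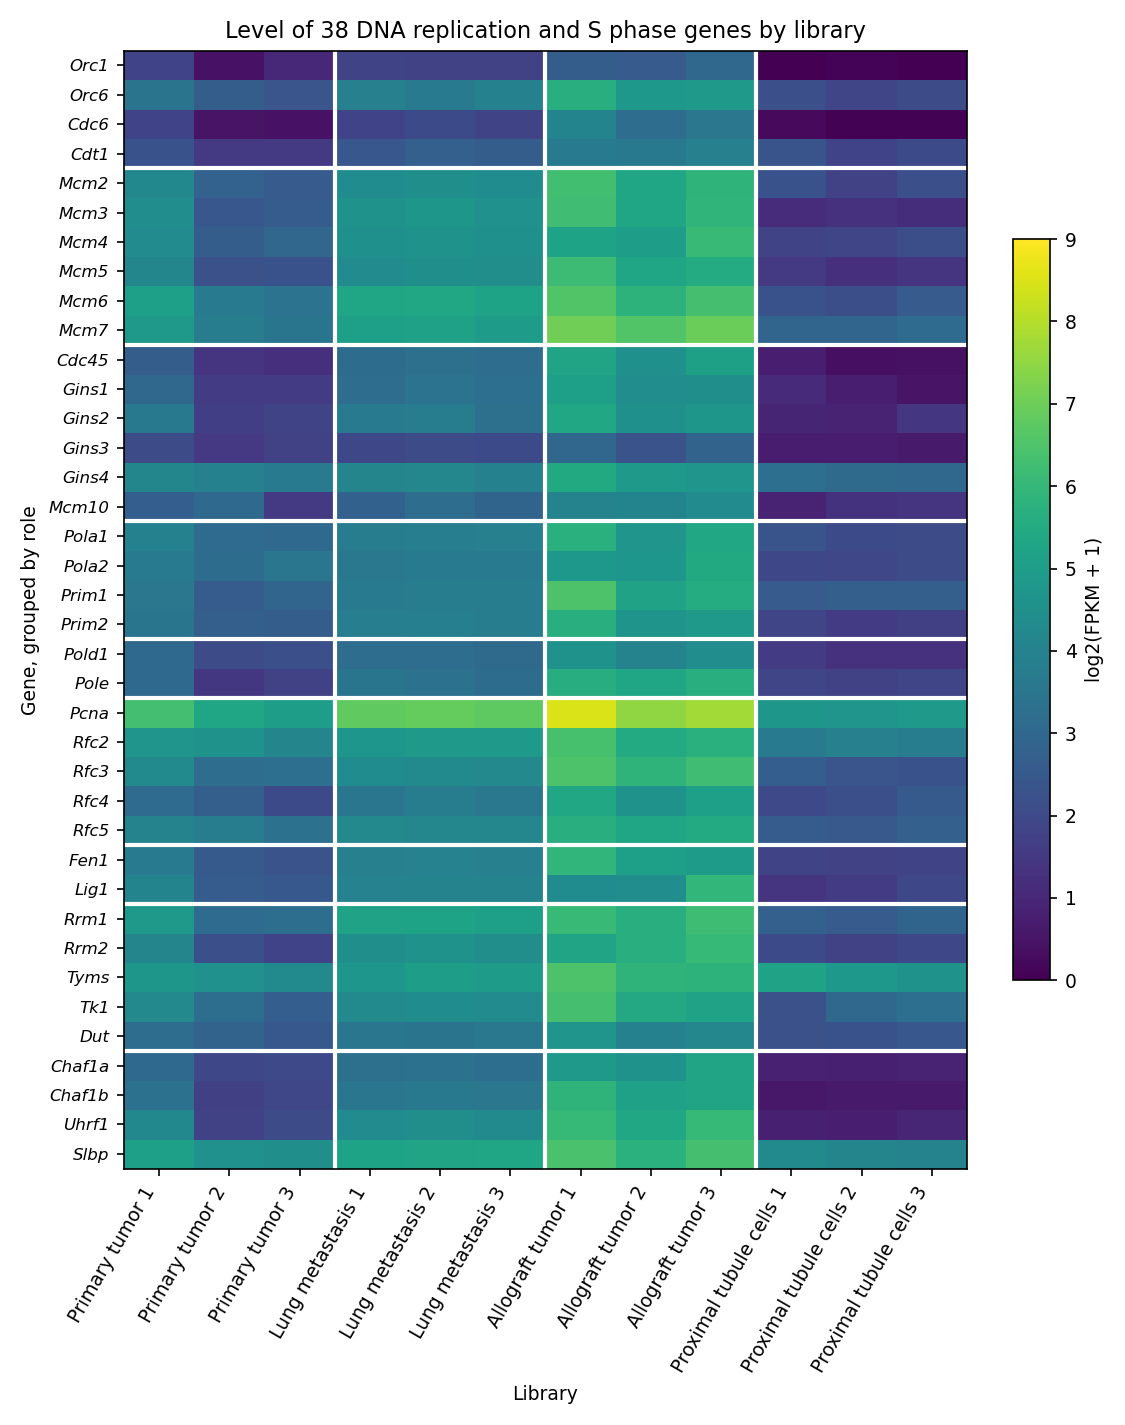
Heat map of the level of each of the 38 replication genes (vertical, grouped by role) in each of the 12 libraries (horizontal, grouped by tissue), coloured by log2(FPKM + 1) from 0 to 9. The 3 allograft columns are the brightest for every gene, and primary tumor 1 resembles the metastasis columns more than primary tumors 2 and 3 do.

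The 3 primary tumors were far from alike. Primary tumor 1 had the highest level of the 3 for 37 of 38 genes (36.7% of all tested genes), the exception being Mcm10, which was highest in primary tumor 2. The ratio of primary tumor 1 to the mean of primary tumors 2 and 3 had a median of 2.44 and ran from 1.17 for Mcm10 to 6.73 for Cdc6. Even so, primary tumor 1 lay below all 3 metastases for 28 of the 38 genes (37.6% of all tested genes). Primary tumors 2 and 3 had the higher sums of proximal tubule and other nephron markers given above and the lower replication levels, and the part of these cells in the difference was not tested. Primary tumors 2 and 3 exceeded all 3 proximal tubule libraries in 33 and 32 of the 38 genes. The share of all tested genes was not computed for single libraries. All 3 primary tumors lay above all 3 controls for 56.7% of all tested genes, so these counts are not read as particular to the 38.

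With limma on log2(FPKM + 1), 28 of 38 genes were called higher in primary tumors than in proximal tubule cells at an adjusted p under 0.05 and 0 lower, where 48.2% of all tested genes were called higher and 4.90% lower. The median change was 1.07 against 0.59 for all genes, and for 31 every primary tumor lay above every proximal tubule library (56.7% of all tested genes). These primary tumor calls rest on the scale: of the 28, 5 were also called after TPM rescaling, 10 after median-of-ratios scaling and 0 after quantile normalization. Left out in turn, single libraries brought the count to between 20 (without primary tumor 1 or proximal tubule library 2) and 32 (without primary tumor 3), and 19 of the 28 genes were called each time. With primary tumor 1 as the only primary tumor, a setting chosen after its values were seen, the median change was 1.78 against 0.60 for all genes. The medians of the 9 roles then ran from 1.40 to 2.55, against 0.55 to 1.61 with all 3. In that setting the lone library is assumed to vary like those of the other groups. The share of all tested genes called was not computed for it. Since 48.2% of all tested genes were called higher on the deposited scale, the count of 28 is not read as particular to these genes. At an unadjusted p under 0.05, 31 were higher and 0 lower.

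Metastases were called higher than proximal tubule cells for 37 of 38 genes and lower for 0, where 54.0% of all tested genes were called higher and 14.4% lower. The median change was 1.85, against 0.68 for all genes, and for 37 the groups did not overlap (62.7% of all tested genes lay above in this way). Of these 37 calls, 25 were also made under all 3 rescalings, and 36 under the removal of any single library (Cdt1 was the exception). Allograft tumors were called higher for 38 of 38 genes and lower for 0, where 52.2% of all tested genes were called higher and 16.9% lower. The median change was 3.25, against 0.66 for all genes, and all 38 lay above without overlap (55.9% of all tested genes). Of the 38 calls, 35 were also made under all 3 rescalings, all but Cdt1, Gins4 and Tyms, which were not called after TPM rescaling. The 3 comparisons with proximal tubule cells share their controls. They also set dissected tissue against sorted cells, so tissue handling and tumor state cannot be told apart in them.

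The comparisons among tumors had median changes over all genes near 0 on the deposited scale, 0.01 for metastases against primary tumors, -0.02 for allograft tumors against primary tumors and 0.03 for allograft tumors against metastases. After TPM rescaling the allograft medians were -0.24 and -0.23. Allograft tumors exceeded primary tumors for 38 of 38 genes (20.5% of all tested genes were called higher and 21.1% lower), with a median change of 2.28 and no overlap for any of the 38 (21.2% of all tested genes), and all 38 calls were also made under all 3 rescalings and without any single library. With primary tumor 1 as the only primary tumor, the 38 changes ran from 0.62 (Gins3) to 2.45 (Pole). Allograft tumors exceeded metastases for 29 of 38 genes (10.4% called higher and 13.3% lower over all genes), with a median change of 1.24. For all 38, every allograft library lay above every metastasis (24.8% of all tested genes). The 29 calls fell to 15 after TPM rescaling and to 19 without metastasis 2, and 19 of the 29 genes were called whichever library was left out. No gene of the 38 was called lower in any comparison among tumors, nor at an unadjusted p under 0.05. Metastases exceeded primary tumors for 18 of 38 genes (11.3% called higher and 9.59% lower over all genes), with a median change of 0.99 and no overlap for 27 (21.9% of all tested genes). The count of 18 turned on single libraries: it was 0 without primary tumor 2, primary tumor 3 or metastasis 2, 1 without metastasis 1 or 3, and 32 without primary tumor 1. Against primary tumor 1 alone, a setting chosen with its values known, the median change was 0.21.

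**Figure D2:**
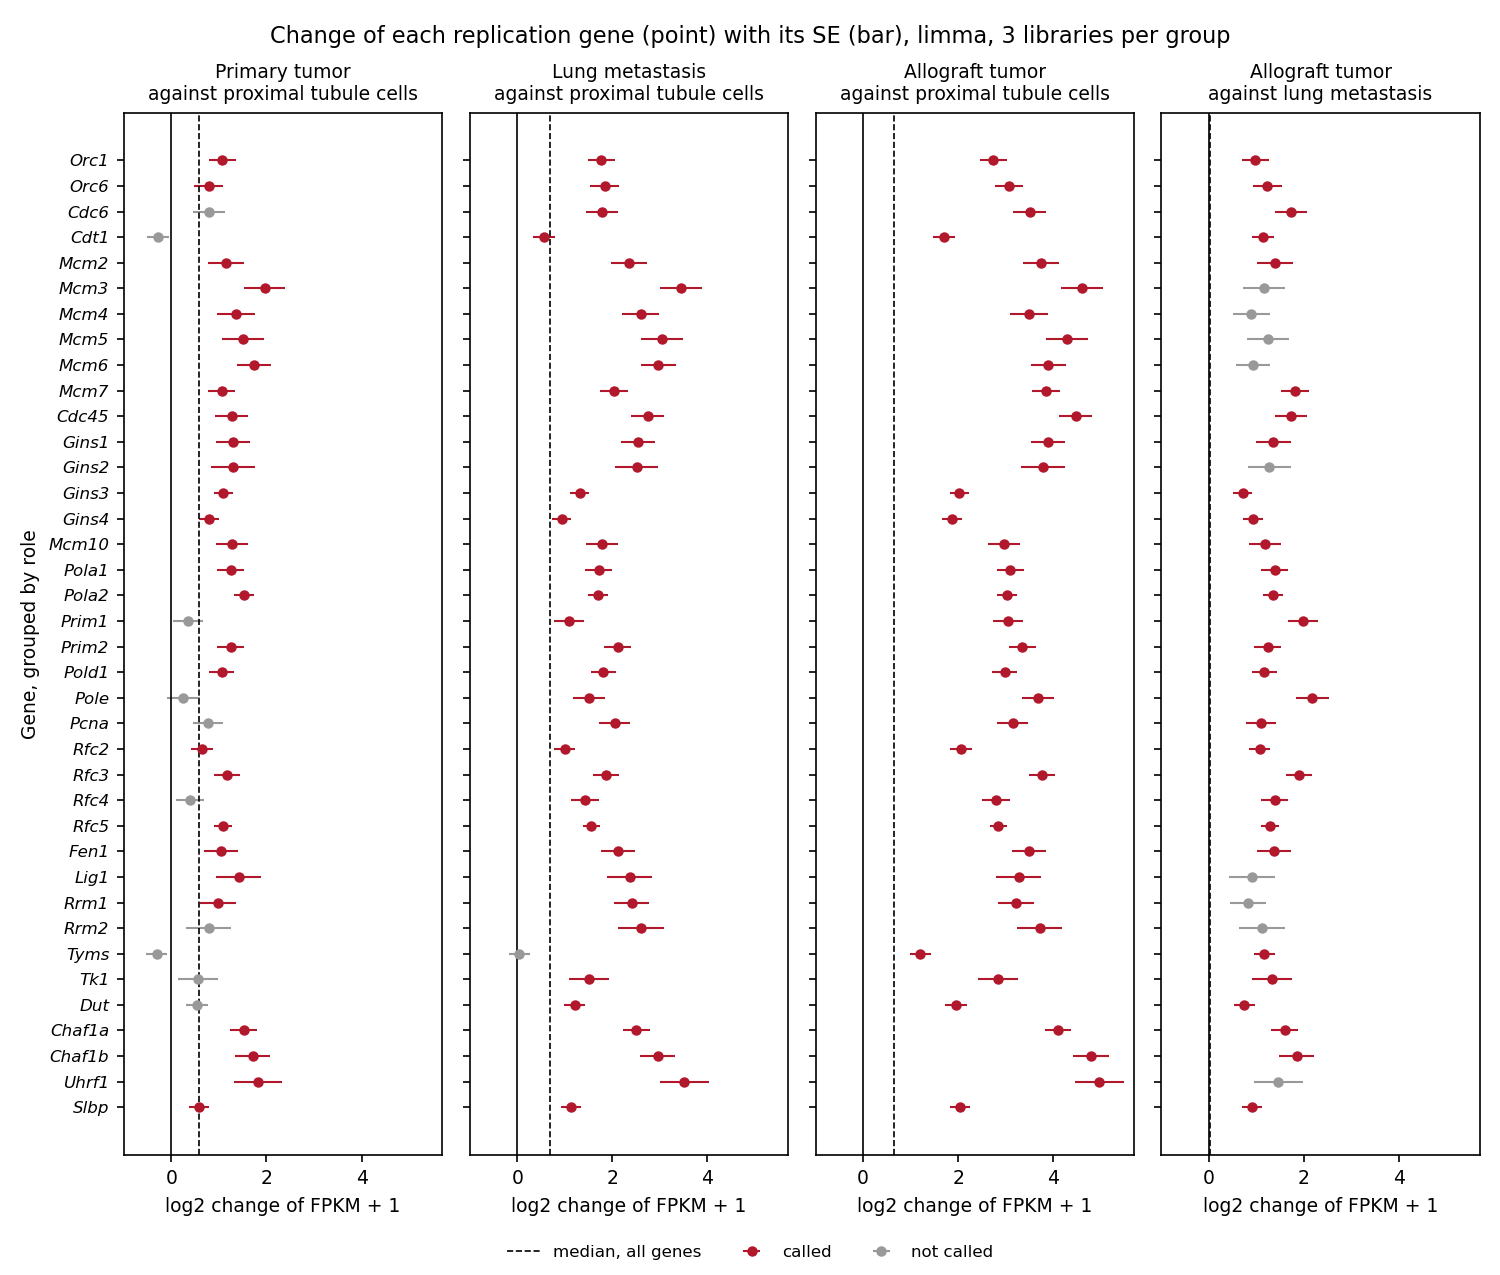
Log2 change of FPKM + 1 (horizontal) of each replication gene (vertical) in 4 comparisons, with points for the estimate, bars for its SE from limma with 3 libraries per group, red for genes called at an adjusted p under 0.05, grey for the others and a dashed line at the median of all tested genes. Every point of the allograft panels lies right of the dashed line, whereas 8 points of the primary tumor panel lie left of it, and after TPM rescaling, median-of-ratios scaling or quantile normalization more of the primary tumor changes turn negative.

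Licensing factors mark and load origins. Orc6, a subunit of the origin recognition complex, stood at 3.53, 2.72 and 3.17 FPKM in proximal tubule libraries 1 to 3, and at 9.99, 5.30 and 4.14 in primary tumors, 14.3, 12.5 and 14.5 in metastases and 50.5, 26.7 and 27.8 in allograft tumors. All values of a group are given in the order of its library numbers. The 4 groups did not overlap. Orc6 rose in metastases (1.84, adjusted p = 0.00034) and allograft tumors (3.06 ± 0.30, SE, adjusted p = 1.39e-05) against proximal tubule cells. Its primary tumor change of 0.78 ± 0.30 (adjusted p = 0.0481) lost its call without primary tumor 1 (0.46), without primary tumor 2 and without any 1 proximal tubule library, and became -0.12 with TPM and -0.19 with quantile normalization. Orc1, the ATPase subunit of the same complex, and Cdc6, the loading ATPase, are named here after their low control levels were seen. Orc1 was listed at 0 in 2 proximal tubule libraries and at 0.0577 FPKM in the other, and Cdc6 at 0.172, 0.0330 and 0.0358, levels at or near that of 1 fragment, which for a transcript of 2 kb is worth 0.0768 to 0.0991 FPKM there. In allograft tumors Orc1 reached 5.26, 4.98 and 7.33 FPKM and Cdc6 15.8, 8.27 and 10.7. Cdt1, which brings the helicase to Orc and Cdc6 and is destroyed in S phase, differed from this pattern. The primary tumor levels of 3.79, 1.92 and 1.87 FPKM overlapped the 4.11, 2.51 and 3.06 in proximal tubule cells. That change of -0.29 ± 0.23 (adjusted p = 0.304) was not called on the deposited scale, but was called lower after TPM rescaling (-1.07), median-of-ratios scaling (-0.78) and quantile normalization (-1.35), and also without primary tumor 1 (-0.53). With primary tumor 1 as the only primary tumor it was 0.20. Its metastasis change of 0.56 ± 0.23 (adjusted p = 0.0476) became -0.29 with TPM and -0.45 with quantile normalization and lost its call when any 1 of 5 libraries was left out. Allograft tumors, at 12.1, 11.4 and 14.3 FPKM, were higher than metastases, at 4.498, 5.75 and 5.28 (1.137, adjusted p = 0.00515), a call not made after TPM rescaling.

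The MCM2-7 helicase subunits rose together against proximal tubule cells. All 6 were called higher in each of the 3 comparisons with proximal tubule cells and in both other tumor groups against primary tumors, with median changes of 1.43 in primary tumors, 2.78 in metastases and 3.87 in allograft tumors against proximal tubule cells (0.59, 0.68 and 0.66 over all tested genes, of which 48.2%, 54.0% and 52.2% were called higher). Between allograft tumors and primary tumors, 20.5% of all tested genes were called higher. Each of the 6 calls between metastases and primary tumors (11.3% of all tested genes called higher) was lost when some single library was left out. With primary tumor 1 as the only primary tumor, metastases exceeded it by 0.20 to 0.28 and allograft tumors by 1.12 to 2.00. The primary tumor median against proximal tubule cells was then 2.55. For primary tumors the 6 changes stayed positive under all 3 rescalings, but only Mcm3 was called after TPM rescaling, Mcm3 and Mcm6 after median-of-ratios scaling and none after quantile normalization. Mcm3 (chr1:20802968-20820312, minus strand) stood at 1.22, 1.42 and 1.25 FPKM in proximal tubule cells, 20.3, 4.40 and 5.19 in primary tumors, 23.7, 25.9 and 22.7 in metastases and 74.1, 38.9 and 57.6 in allograft tumors. Its rise of 3.45 ± 0.44 in metastases (adjusted p = 7.18e-05) and 4.61 ± 0.44 in allograft tumors (adjusted p = 1.24e-05) was the largest of the 6 subunits. Mcm7 (chr5:138164583-138172422, minus strand) had the highest control levels, 6.69, 6.73 and 7.77 FPKM, and reached 27.9, 13.2 and 10.3 in primary tumors, 32.4, 34.4 and 29.7 in metastases and 131, 92.6 and 124 in allograft tumors. It rose by 2.04 in metastases (adjusted p = 0.000155) and by 3.85 ± 0.29 in allograft tumors (adjusted p = 4.76e-06). Its exons share bases with Ap4m1, Cops6, Mir25 and Mir93, and whether counting used strand is not stated in the sources used here.

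Mcm2 (chr6:88883474-88898780, minus strand) stood at 3.76, 2.36 and 3.63 FPKM in proximal tubule cells, 17.4, 6.19 and 5.06 in primary tumors, 19.9, 21.4 and 19.9 in metastases and 76.5, 39.2 and 56.2 in allograft tumors. Mcm4 (chr16:15623897-15637400, minus strand) stood at 2.59, 2.65 and 3.49 in proximal tubule cells, 19.1, 5.28 and 6.83 in primary tumors, 22.1, 23.2 and 22.2 in metastases and 36.4, 32.0 and 66.5 in allograft tumors. Neither gene overlapped between proximal tubule cells and any tumor group. Mcm5 (chr8:75109569-75128439, plus strand) stood at 1.85, 1.37 and 1.60 FPKM in proximal tubule cells, 16.6, 3.70 and 3.84 in primary tumors, 19.3, 21.1 and 20.8 in metastases and 71.7, 38.1 and 44.9 in allograft tumors. Mcm6 (chr1:128331590-128359664, minus strand) stood at 3.83, 3.47 and 4.95 in proximal tubule cells, 32.6, 12.003 and 9.86 in primary tumors, 39.3, 40.6 and 35.9 in metastases and 92.4, 55.0 and 79.9 in allograft tumors. These levels again separated all 4 groups, apart from the wide gap between primary tumor 1 and the others of its group. Against metastases, allograft tumors were called higher only for Mcm7 (1.81 ± 0.29, adjusted p = 0.00163) and Mcm2 (1.40 ± 0.38, adjusted p = 0.0238) among the 6, and the Mcm2 call was lost after TPM rescaling and without any metastasis or allograft tumor 1 or 3. The changes of Mcm3 (1.16 ± 0.44, adjusted p = 0.0823), Mcm4 (0.89 ± 0.40, adjusted p = 0.132), Mcm5 (1.25, adjusted p = 0.0655) and Mcm6 (0.93, adjusted p = 0.0959) did not pass.

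**Figure D3:**
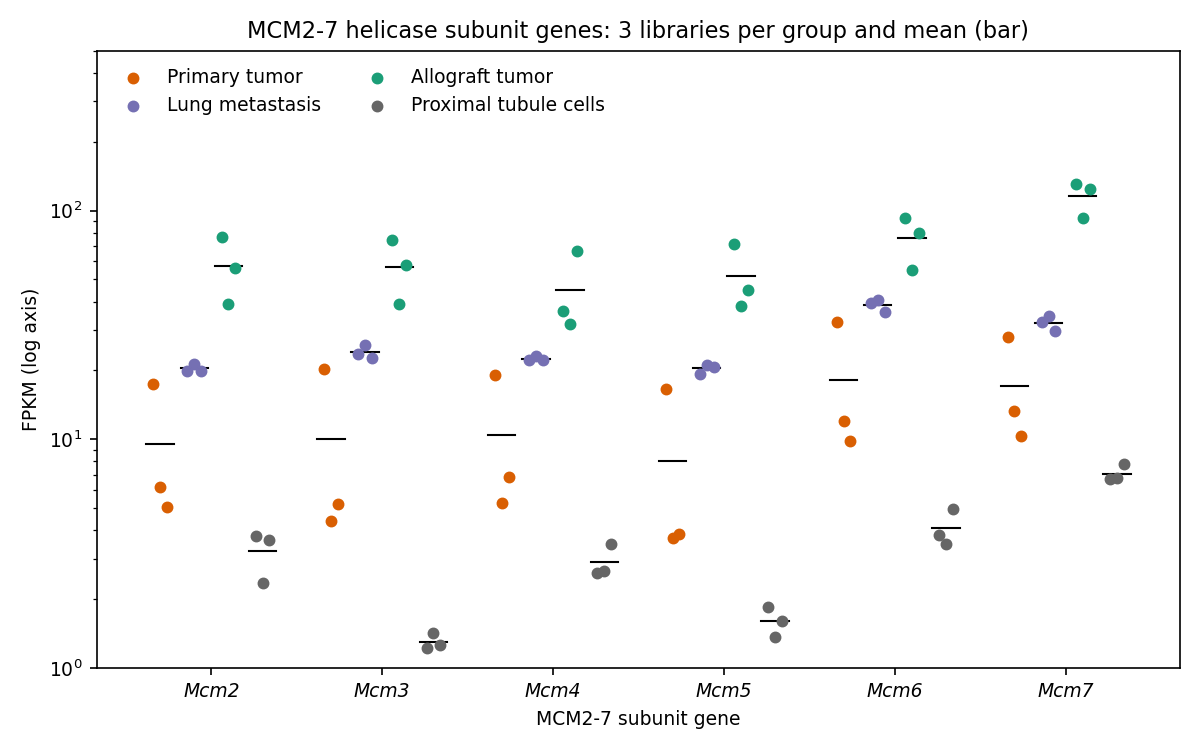
FPKM on a log axis (vertical) of the 6 MCM2-7 subunits in the 4 groups (horizontal), with 1 point per library and a bar at each group mean. For every subunit the allograft points lie above the metastasis points and the proximal tubule points lie lowest, with 1 primary tumor close to the metastases.

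The 6 subunits sit in the active ring in equal numbers, but their transcripts did not occur in equal FPKM. Summed over the complex, FPKM came to 19.9, 18.01 and 22.7 in proximal tubule cells, 134, 44.8 and 41.1 in primary tumors, 157, 167 and 151 in metastases and 482, 296 and 429.5 in allograft tumors. Mcm7 made up 33.5%, 37.4% and 34.2% of this sum in proximal tubule cells, 20.7%, 20.7% and 19.6% in metastases and 27.2%, 31.3% and 28.9% in allograft tumors. Its share thus separated these 3 groups without overlap, and the primary tumors (20.8%, 29.5% and 25.1%) spread between them. Mcm3 made up 6.14%, 7.90% and 5.52% in proximal tubule cells, 15.1%, 15.6% and 15.0% in metastases, 15.4%, 13.2% and 13.4% in allograft tumors and 15.2%, 9.83% and 12.6% in primary tumors. The ratio of the highest to the lowest subunit was 4.92 to 6.20 in proximal tubule cells, 2.77 to 3.61 in allograft tumors and 1.81 to 2.03 in metastases, against 1.96, 3.58 and 2.69 in primary tumors 1 to 3. The subunits were closer to equal in metastases than in allograft tumors and proximal tubule cells, and primary tumor 1 lay within the metastasis range. Mcm4 had the lowest share in allograft tumors 1 and 2 (7.54% and 10.8%), against 15.5% in allograft tumor 3. These shares are descriptions, depend on the transcript lengths used for FPKM and do not change with a library's scale.

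**Figure D4:**
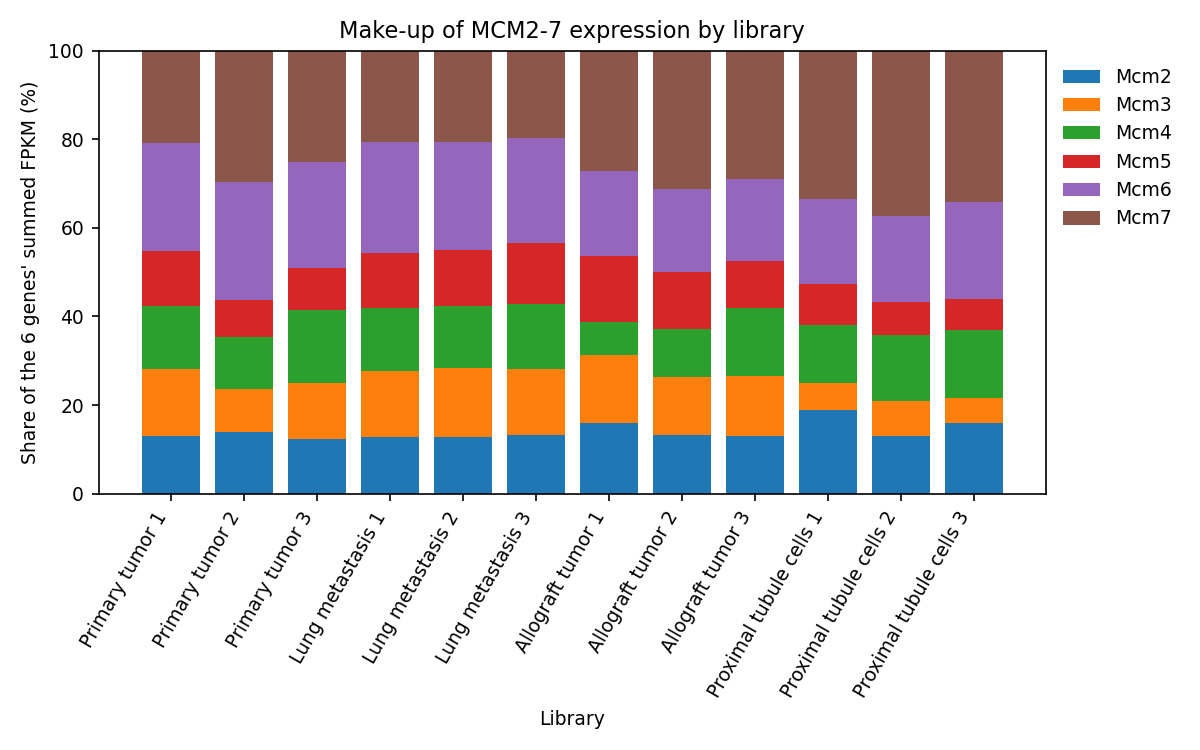
Stacked bars of the share of each MCM2-7 subunit in their summed FPKM (vertical, percent) for the 12 libraries (horizontal). The Mcm7 segment is widest in proximal tubule cells (33.5% to 37.4%) and the Mcm3 segment is narrowest there (5.52% to 7.90%).

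Helicase activation factors join the loaded ring in S phase. All 6 were called higher in each tumor group than in proximal tubule cells, with median changes of 1.27, 2.15 and 3.38 in primary tumors, metastases and allograft tumors (48.2%, 54.0% and 52.2% of all tested genes were called higher, with medians of 0.59, 0.68 and 0.66). Cdc45, which together with GINS and MCM2-7 forms the moving helicase, stood at 0.676, 0.279 and 0.323 FPKM in proximal tubule cells, 5.33, 1.65 and 1.35 in primary tumors, 8.15, 9.01 and 8.28 in metastases and 37.5, 21.9 and 34.0 in allograft tumors. Its levels separated all 4 groups. Cdc45 rose by 2.74 in metastases (adjusted p = 6.44e-05) and 4.47 ± 0.34 in allograft tumors (adjusted p = 4.92e-06), and was higher in allograft tumors than in metastases (1.73, adjusted p = 0.00506). Its primary tumor change of 1.27 ± 0.34 (adjusted p = 0.0107) fell to -0.0048 after quantile normalization. Gins4, a GINS subunit, was the most abundant gene of this role by mean FPKM and changed least, from 8.85, 7.57 and 7.08 FPKM in proximal tubule cells to 16.6, 14.6 and 12.02 in primary tumors, 16.3, 16.8 and 14.4 in metastases and 43.6, 27.4 and 25.1 in allograft tumors. Primary tumors and metastases overlapped in Gins4 (0.13, adjusted p = 0.69), and its changes in both against proximal tubule cells (0.80 ± 0.21, adjusted p = 0.00907, and 0.93, adjusted p = 0.00253) became -0.21 and -0.046 with TPM. Gins1 and Gins2 changed more than Gins3 and Gins4 in the allograft comparison, by 3.89 and 3.79 against 2.02 and 1.87, although the 4 proteins form 1 complex. The difference between them was not tested, and 2758 of the 4097 exonic bases of Gins2 are shared with Gse1 on the other strand.

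Polymerase alpha-primase starts each new strand. All 4 of its genes were called higher in metastases and in allograft tumors than in proximal tubule cells (54.0% and 52.2% of all tested genes). All 4 were also called higher in allograft tumors than in primary tumors and in metastases (20.5% and 10.4% of all tested genes). Between metastases and primary tumors, 0 of 4 were called by limma (2 at an unadjusted p under 0.05). Of all tested genes 11.3% were called higher there, and 0 of 4 is near that share. Prim1, the catalytic primase subunit, stood at 4.99, 5.64 and 5.66 FPKM in proximal tubule cells, 10.9, 5.15 and 6.57 in primary tumors, 12.05, 13.2 and 12.6 in metastases and 88.6, 35.0 and 46.1 in allograft tumors. Primary tumor 2 lay within the range of the controls. Its change of 0.35 ± 0.32 in primary tumors (adjusted p = 0.367) did not pass and turned negative under all 3 rescalings, while the rise in allograft tumors was 3.05 ± 0.32 (adjusted p = 1.96e-05) against proximal tubule cells and 1.97 ± 0.32 (adjusted p = 0.00157) against metastases. Pole (chr5:110286306-110337474, plus strand), the catalytic subunit of the leading strand polymerase epsilon, showed the widest gap between allograft tumors and metastases. It stood at 47.6, 39.0 and 50.04 FPKM in allograft tumors, 10.2, 9.40 and 8.16 in metastases, 7.46, 1.73 and 2.38 in primary tumors and 2.72, 2.37 and 2.71 in proximal tubule cells. Allograft tumors exceeded metastases by 2.18 ± 0.34 (adjusted p = 0.00132), the largest change of the 38 genes in that comparison, and the ratio of the means was 4.92. Primary tumor 2 lay below the control range and primary tumor 3 within it, and the primary tumor change of 0.25 ± 0.34 (adjusted p = 0.554) became -0.24 without primary tumor 1 and was negative under all 3 rescalings. Pold1, the catalytic subunit of polymerase delta, changed by 1.06, 1.81 and 2.98 in the 3 comparisons with proximal tubule cells and was called in each, though its primary tumor change became -0.11 after quantile normalization.

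The sliding clamp gene Pcna (chr2:132249162-132253314, minus strand) had the highest mean FPKM of the 38. It stood at 26.0, 25.1 and 27.7 FPKM in proximal tubule cells, 77.5, 38.7 and 31.5 in primary tumors, 110.3, 118 and 108 in metastases and 358, 180.4 and 216 in allograft tumors. The levels of the 4 groups did not overlap. Pcna rose by 2.05 ± 0.32 in metastases (adjusted p = 0.000265) and by 3.15 in allograft tumors (adjusted p = 1.73e-05), and its primary tumor change of 0.77 ± 0.32 did not pass (adjusted p = 0.0641) and was -0.31 after TPM rescaling. Of the clamp and its loaders Rfc2 to Rfc5, which open the ring and close it round DNA, 3 of 5 were called higher in primary tumors and 5 of 5 in metastases and allograft tumors against proximal tubule cells, where 48.2%, 54.0% and 52.2% of all tested genes were. The primary tumor count is near that share. Rfc3 changed most of the 4 loaders in allograft tumors, by 3.76, and Rfc2 least, by 2.06. Fen1, the flap endonuclease of lagging strand processing, stood at 2.59, 2.46 and 2.56 FPKM in proximal tubule cells, 12.2, 4.89 and 3.95 in primary tumors, 14.0, 15.0 and 14.2 in metastases and 60.2, 32.6 and 29.8 in allograft tumors. It rose by 2.12 in metastases (adjusted p = 0.000376) and 3.49 in allograft tumors (adjusted p = 1.6e-05). Fen1 shares 1909 exonic bases with an antisense gene, and reads of the pair cannot be told apart without strand. Lig1, the ligase that seals the fragments, differed between allograft libraries: 20.02, 20.04 and 61.7 FPKM, against 15.0, 15.1 and 15.3 in metastases, so the allograft change of 0.91 ± 0.48 against metastases (adjusted p = 0.202) did not pass although no library overlapped.

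Genes of nucleotide supply differed from one another, with changes from 1.20 to 3.72 in allograft tumors and from -0.31 to 0.98 in primary tumors against proximal tubule cells. Rrm2, the regulated subunit of ribonucleotide reductase, which makes deoxynucleotides, stood at 3.09, 2.46 and 2.83 FPKM in proximal tubule cells, 16.2, 3.62 and 2.51 in primary tumors, 21.4, 23.8 and 20.9 in metastases and 36.8, 49.1 and 64.2 in allograft tumors. Primary tumor 3 lay within the control range and primary tumor 1 far above it. Rrm2 rose by 2.60 ± 0.48 in metastases (adjusted p = 0.000706) and by 3.72 ± 0.48 in allograft tumors (adjusted p = 6.26e-05). It exceeded primary tumors by 1.82 ± 0.48 in metastases (adjusted p = 0.0245), the largest change of the 38 genes in that comparison. Against primary tumor 1 alone that change was only 0.42. Tyms (chr5:30058202-30073617, minus strand), thymidylate synthase, had a primary tumor mean below the control mean, as Cdt1 did, and was the only gene of the 38 not called in metastases against proximal tubule cells. It stood at 35.2, 26.7 and 23.3 FPKM in proximal tubule cells, 26.3, 22.5 and 18.9 in primary tumors, 25.8, 31.3 and 29.7 in metastases and 89.3, 56.7 and 55.8 in allograft tumors. Only the allograft levels lay outside the control range as a group. The change was -0.31 ± 0.22 in primary tumors (adjusted p = 0.255) and 0.04 ± 0.22 in metastases (adjusted p = 0.88, turning to -0.99 after TPM rescaling), neither of which passed on the deposited scale. The primary tumor change was called lower under all 3 rescalings, at -1.37 (TPM), -0.95 (median-of-ratios) and -0.70 (quantile), and the metastasis change under TPM and median-of-ratios scaling (-0.55). Tyms rose by 1.20 ± 0.22 in allograft tumors (adjusted p = 0.000702), a change of -0.19 after TPM rescaling, and by 1.16 against metastases (adjusted p = 0.00418), where it was called under all 3 rescalings. Rrm1, the other reductase subunit, and the thymidine and deoxyuridine enzymes Tk1 and Dut were called higher in both metastases and allograft tumors, with allograft changes of 3.22, 2.83 and 1.95. Of these metastasis calls, that of Rrm1 was also made under all 3 rescalings and those of Tk1 and Dut were not.

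Chromatin is rebuilt behind the fork, and this role had the largest median change in allograft tumors, 4.45. Uhrf1 (chr17:56303321-56323486, plus strand), which reads hemimethylated DNA after replication and recruits Dnmt1, stood at 0.730, 0.698 and 0.946 FPKM in proximal tubule cells, 17.3, 2.32 and 3.17 in primary tumors, 19.4, 20.8 and 18.2 in metastases and 64.5, 39.9 and 65.1 in allograft tumors. The groups did not overlap, and primary tumor 1 lay near the metastases. Uhrf1 rose by 3.52 ± 0.51 in metastases (adjusted p = 0.00017) and 4.97 ± 0.51 in allograft tumors (adjusted p = 1.84e-05), the largest change of the 38 genes in both comparisons, and its excess in allograft tumors over metastases of 1.46 ± 0.51 did not pass (adjusted p = 0.0647). Chaf1b, a subunit of the histone chaperone CAF-1, stood at 0.488, 0.563 and 0.584 FPKM in proximal tubule cells, 9.54, 2.24 and 2.77 in primary tumors, 10.6, 11.5 and 10.8 in metastases and 56.3, 34.9 and 37.4 in allograft tumors. It rose by 2.95 in metastases (adjusted p = 7.02e-05) and 4.80 ± 0.37 in allograft tumors (adjusted p = 5.16e-06), and also between metastases and allograft tumors (1.84, adjusted p = 0.00564). The ratio of allograft to proximal tubule means was 78.7 for Chaf1b and 71.4 for Uhrf1. By this ratio, which uses no pseudocount, Orc1 (304.7) and Cdc6 (144.6), with their low control levels, ranked higher, and Cdc45 (73.1) lay above Uhrf1. Chaf1a, the partner of Chaf1b in CAF-1, changed alike in direction, by 1.52, 2.50 and 4.10, though 4648 of its 8854 exonic bases are shared with Ubxn6 on the other strand. Slbp, which binds the stem-loop of replication-dependent histone mRNAs, started from a higher control level and changed less: it stood at 18.4, 16.2 and 15.3 FPKM in proximal tubule cells, 33.1, 22.7 and 21.4 in primary tumors, 36.0, 36.8 and 39.3 in metastases and 84.2, 52.6 and 80.7 in allograft tumors. Its rise was 1.13 in metastases (adjusted p = 0.000843) and 2.03 in allograft tumors (adjusted p = 1.93e-05), and its primary tumor change of 0.58 ± 0.21 (adjusted p = 0.04) lost its call without primary tumor 1 and became -0.48 with TPM and -0.047 with median-of-ratios scaling.

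A further list of 44 replication genes outside the 38, among them the firing kinase genes, other polymerase subunits and replication-coupled chromatin factors, had medians of the same sign and smaller size. In it 27 were called higher in primary tumors, 37 in metastases and 40 in allograft tumors against proximal tubule cells, with median changes of 0.78, 1.29 and 2.06, where 48.2%, 54.0% and 52.2% of all tested genes were called higher. The primary tumor count of 27 of 44 is not far from that share. Over the alternative settings the counts ran from 4 to 33, 19 to 40 and 27 to 41. The counts called lower were 0, 1 and 0, with ranges over the alternatives of 0 to 7, 1 to 5 and 0 to 5. The top of the range called higher in primary tumors was reached with primary tumor 1 as the only primary tumor, a setting without a share over all genes. Dbf4 and Cdc7, which form the kinase that fires origins, rose most in allograft tumors, by 4.71 ± 0.38 (adjusted p = 5.54e-06) and 4.45 ± 0.31 (adjusted p = 3.14e-06). Cdc7 stood at 0.0719, 0.212 and 0.0603 FPKM in proximal tubule cells and at 21.2, 17.6 and 34.0 in allograft tumors, and Dbf4 at 1.57, 1.40 and 0.870 and at 64.8, 42.0 and 72.1. The control levels of Cdc7 again amount to few fragments.

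Regulators of the G1/S transition were mixed. Of 24, 9 were called higher in primary tumors, 17 in metastases and 19 in allograft tumors against proximal tubule cells, and 0, 1 and 3 lower. Over all tested genes the shares were 48.2%, 54.0% and 52.2% higher and 4.90%, 14.4% and 16.9% lower, so the primary tumor count lies below its background. Ranges over the alternatives were 1 to 16, 8 to 18 and 12 to 19 higher and 0 to 7, 1 to 5 and 1 to 7 lower. Again the top of the range called higher in primary tumors was reached with primary tumor 1 as the only primary tumor. Ccna2, the S phase cyclin gene, rose by 3.83 ± 0.62 in metastases (adjusted p = 0.000309) and 5.33 in allograft tumors. Rbl2, which encodes the pocket protein p130 of resting cells, stood at 24.2, 25.1 and 25.6 FPKM in proximal tubule cells, 16.3, 29.1 and 23.8 in primary tumors, 14.1, 13.6 and 12.9 in metastases and 9.02, 9.82 and 10.9 in allograft tumors. It fell by 0.84 in metastases (adjusted p = 0.0023) and by 1.25 in allograft tumors (adjusted p = 0.000163). The D-type cyclin gene Ccnd2 did not follow the replication genes: it stood at 2.50, 1.92 and 1.71 FPKM in proximal tubule cells, 28.0, 8.05 and 13.5 in primary tumors, 39.3, 29.3 and 30.1 in metastases and 7.17, 12.6 and 9.29 in allograft tumors. It rose by 2.37 ± 0.36 in primary tumors (adjusted p = 0.000471) and 3.47 ± 0.36 in metastases, and was lower in allograft tumors than in metastases (-1.68 ± 0.36, adjusted p = 0.00781).

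Mitosis genes did not keep a constant distance from the replication genes. Of 15 mitosis genes, 5 were called higher in primary tumors and 15 in both metastases and allograft tumors against proximal tubule cells, with median changes of 1.32, 3.32 and 4.20. Of all tested genes 48.2%, 54.0% and 52.2% were called higher, so the primary tumor count lies below its background. It ran from 0 to 15 over the alternatives, and the top of that range was reached with primary tumor 1 as the only primary tumor. Between allograft tumors and metastases, 0 of the 15 were called by limma (3 at an unadjusted p under 0.05), where 29 of the 38 replication genes were, although the median of the 15 changes was 0.98 and the difference between the lists was not tested. Of all tested genes 10.4% were called higher in this comparison, and 0 of 15 is near that share. With only these 2 groups in the fit, 8 of the 15 were called. Top2a, the topoisomerase that untangles sister chromosomes, stood at 0.914, 1.62 and 1.24 FPKM in proximal tubule cells, 38.4, 4.31 and 4.81 in primary tumors, 51.7, 61.0 and 53.3 in metastases and 281, 117 and 131 in allograft tumors. The mean log2(FPKM + 1) of the mitosis genes minus that of the 38 replication genes was 0.22, 0.34 and 0.21 in metastases and -0.01, -0.13 and -0.28 in allograft tumors. It was -1.49, -0.91 and -1.30 in proximal tubule cells and -0.05, -1.30 and -1.13 in primary tumors. Primary tumors 2 and 3 thus had mitosis means well below their replication means, as the sorted cells did, and primary tumor 1 was close to equal.

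**Figure D5:**
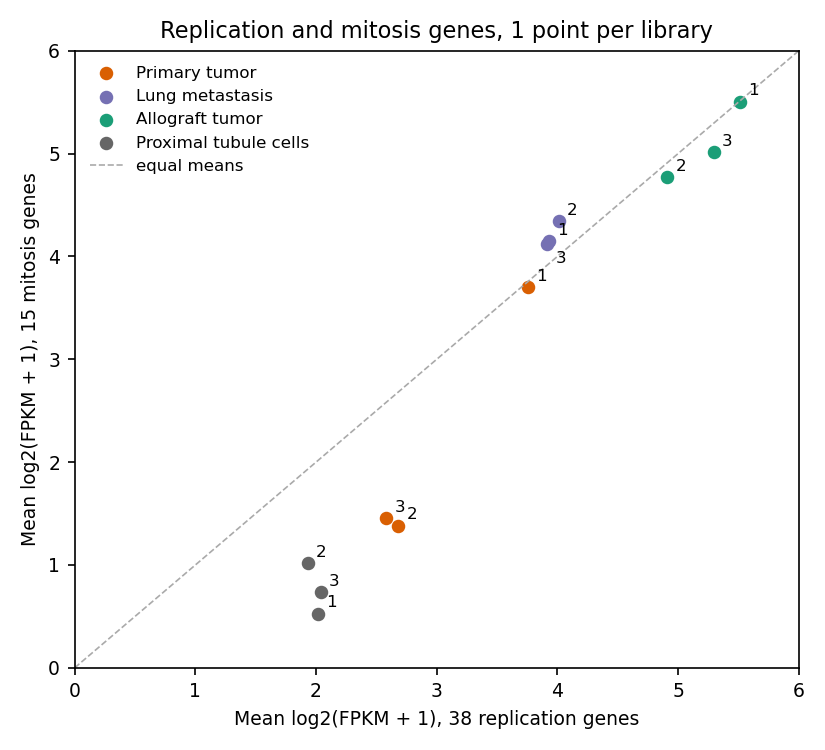
Mean log2(FPKM + 1) of the 38 replication genes (horizontal) against that of 15 mitosis genes (vertical), with 1 point per library, numbered within its group, and a dashed line where the means are equal. The 3 metastases lie above the line, the 3 allograft tumors on it or below it, and the proximal tubule libraries lie lowest with primary tumors 2 and 3 next to them.

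Host cells moved with the groups too. Macrophage markers summed to 7.51 to 7.84 FPKM in proximal tubule cells, 411 to 2810 in primary tumors, 5082 to 5667 in metastases and 1712 to 6553 in allograft tumors, and 8 of 8 were called higher in each tumor group than in the sorted cells. Fibroblast markers summed to 2.62 to 4.82, 156 to 924, 424 to 531 and 921 to 2296 in the same order, again with 6 of 6 called higher each time. Of all tested genes 48.2%, 54.0% and 52.2% were called higher than in the sorted cells in primary tumors, metastases and allograft tumors. Between allograft tumors and metastases 0 of 8 macrophage markers were called by limma (1 lower at an unadjusted p under 0.05). In this comparison 10.4% of all tested genes were called higher in allograft tumors and 13.3% lower. Lung epithelium markers summed to 12342 to 19515 in metastases against 5.22 to 12.7 in allograft tumors, 7 of 7 lower there. T and NK cell markers were at 25.4 to 36.2 FPKM in metastases and 10.9 to 18.5 in allograft tumors, with 5 of 7 called lower there. Cd3g was listed at 0 in at least 1 allograft library and was at most 0.411 FPKM, whereas Cd4 (4.95 to 7.35 FPKM in allograft tumors, 4.06 to 5.74 in metastases) and Cd3d (2.55 to 11.8 and 5.21 to 9.09) overlapped between these groups. B and plasma cell markers summed to 130 to 234 FPKM in metastases, 121 to 443 in primary tumors, 9.78 to 59.6 in allograft tumors and 0.346 to 0.817 in proximal tubule cells, and 6 of 6 were called lower in allograft tumors than in each other tumor group (13.3% of all tested genes against metastases and 21.1% against primary tumors). Endothelium markers summed to 207 to 364, 155 to 194, 48.6 to 94.1 and 41.7 to 60.7 in the same order, with 6 of 6 called lower in allograft tumors than in metastases and 4 of 6 than in primary tumors. Such cells can divide as well, and their part in the replication gene levels was not tested. Immediate early genes, which respond to cell handling, summed to 459 to 1152 in the sorted cells and 59.1 to 330.4 in the tumors. Called lower than in the sorted cells were 6, 4 and 5 of the 7 in primary tumors, metastases and allograft tumors (4.90%, 14.4% and 16.9% of all tested genes). Those called higher were 0, 1 and 1. Junb lay higher in metastases (79.75 to 126.3 FPKM) and allograft tumors (73.08 to 127.9) than in the sorted cells (29.35 to 50.81).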

How the data were processed

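Expression was measured by RNA-seq in 12 mouse libraries, 3 in each of 4 groups. The values are FPKM per gene as deposited by the authors. Reads were converted with bcl2fastq 2.17.1.14 and Salmon was used, with builds GRCm38 and mm10 named, per the submitters' processing notes. The sources used here do not give transcript lengths, strand or whether the sorted cell libraries were made alike, and read counts were not used, so depth is only estimated from the smallest values of long genes. Symbols and coordinates came from GENCODE M21 on GRCm38.

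Genes with at least 1 FPKM in at least 3 libraries (16313) were fitted on log2(FPKM + 1) with limma 3.58.1 in R 4.3.3, all 4 groups together with a mean-variance trend. A pseudocount of 1 understates changes of low genes. The 6 pairwise comparisons were adjusted by Benjamini-Hochberg over all tested genes, and a gene was called at an adjusted p under 0.05. Code was tested on simulated data. The set, its roles and all lists were chosen with earlier results of these data known. Genes named were the highest by mean FPKM in each of 9 roles, the 2 largest called changes per comparison, all 6 MCM2-7 subunits and, of each other list, the 2 largest called changes in each direction per comparison with proximal tubule cells. Of these, 1 gene is not reported here. Cdt1, Orc1, Cdc6, Lig1 and other genes beyond this rule were named after their values were seen. Same-numbered libraries did not deviate together, so numbers were not used as pairs. Alternatives were pseudocounts, filters, rescaling to TPM, median-of-ratios and quantile scaling, only the 2 groups compared, a replicate block and leaving out libraries. FPKM are not counts, so no count model was used.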

Additional observations from a re-analysis of the deposited data

How the results depend on the processing

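Counts are of the 38 replication genes on the log2(FPKM + 1) scale, and for each value that moved the cause was not tested beyond what the setting itself changes. Against proximal tubule cells, 28 were called higher in primary tumors. This count was 16 with a pseudocount of 5, 5 with TPM (2 lower), 10 with median-of-ratios scaling (2 lower), 0 with quantile normalization (2 lower) and 15 with only these 2 groups, and it ran from 20 to 32 over left-out libraries (0 to 1 lower). In metastases 1 gene, Tyms, was called lower with TPM and also with median-of-ratios scaling (1 lower each). Of the 37 called higher there, 28 were also called with TPM, 32 with median-of-ratios scaling and 27 with quantile normalization. The count ran from 36 to 37 over left-out libraries. The count of 18 higher in metastases than in primary tumors was 11 with no filter, 0 with only these 2 groups and 0 to 32 over left-out libraries. The count of 29 in allograft tumors against metastases was 15 after TPM rescaling and 19 to 27 over left-out libraries. Both other allograft counts stayed at 38 over left-out libraries. The labels do not state that same-numbered libraries are pairs, and 0 of 18 same-number correlations of deviations were over 0.1, which cannot exclude shared animals. A replicate block gave 29, 36 and 38 higher in primary tumors, metastases and allograft tumors against proximal tubule cells. It gave 21 and 38 in metastases and allograft tumors against primary tumors, and 29 in allograft tumors against metastases.

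Single changes turned sign mainly in primary tumors against proximal tubule cells. After TPM rescaling these were Orc6 -0.12, Gins4 -0.21, Prim1 -0.59, Pole -0.54, Pcna -0.31, Rfc2 -0.40, Rfc4 -0.51, Rrm1 -0.0010, Rrm2 -0.071, Tk1 -0.42, Dut -0.38 and Slbp -0.48. After median-of-ratios scaling they were Prim1 -0.21, Pole -0.24, Rfc4 -0.15, Tk1 -0.024, Dut -0.0063 and Slbp -0.047. After quantile normalization they were Orc6 -0.19, Cdc6 -0.26, Cdc45 -0.0048, Gins3 -0.23, Prim1 -0.44, Pold1 -0.11, Pole -0.81, Rfc4 -0.57, Rrm2 -0.20, Tk1 -0.20 and Dut -0.38. Over left-out libraries Pole ran from -0.24 (without primary tumor 1) to 0.57, and without primary tumors 2 and 3 Cdt1 was 0.20. In metastases against proximal tubule cells, Cdt1 -0.29, Gins4 -0.046, Rfc2 -0.018 and Tyms -0.99 turned after TPM rescaling, Tyms -0.55 after median-of-ratios scaling, and Cdt1 -0.45, Gins3 -0.012 and Tyms -0.30 after quantile normalization. Over left-out libraries Tyms ran there from -0.087 (without proximal tubule library 3) to 0.20, with -0.019 without metastasis 2. In allograft tumors Tyms was -0.19 after TPM rescaling. Against primary tumor 1 alone, metastases were lower for Orc1 (-0.0028), Gins2 (-0.027), Gins3 (-0.085), Gins4 (-0.072), Pola1 (-0.095), Pola2 (-0.079), Rfc3 (-0.0085) and Lig1 (-0.059).

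Depth limits the low control levels of Orc1, Cdc6 and Cdc7, which rest on few fragments. With 3 libraries per group and no stated animals, the tests cover the spread between libraries only. TPM, median-of-ratios and quantile scaling left 36 of 38 metastasis changes and all 38 allograft changes above the median of all genes, and 28, 29 and 27 of the primary tumor changes, against 30 on the deposited scale.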

Other observations

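Promoter letters of the other lists are given here as a description. An E2F form was in 26.7% of 45 windows of the further replication genes, 34.8% of 23 windows of the G1/S regulators and 7.69% of 13 windows of the mitosis genes, against 2.26% of all windows. CCAAT was in 46.7%, 39.1% and 92.3% of the same windows. Within the 38 replication genes, 13 of the 31 with an entry held an E2F form, 19 held CCAAT, 9 held both and 8 neither. Between metastases and primary tumors, the median change was 0.95 over the genes with an E2F form and 1.008 over those without, and between allograft tumors and metastases 1.17 and 1.30.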
